A study of Homo sapiens with 10 samples.

Results

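Keratins are the intermediate filament proteins of epithelial cells. A filament is built of pairs, each holding 1 acidic type I keratin and 1 basic type II keratin, and the pair in use tells one kind of epithelium from another. KRT5 and KRT14 mark the basal layer of stratified and glandular epithelia, with KRT15 as a further basal type I keratin. KRT6A, KRT16 and KRT17 are switched on in wounded, stressed or fast dividing epithelium, and KRT7, KRT8, KRT18 and KRT19 belong to simple, single-layered epithelium, which in the breast means the luminal cells. In an epithelial to mesenchymal transition (EMT), cells lose epithelial traits and gain those of migratory mesenchymal cells, and a shift from keratin to vimentin filaments is commonly used to follow it.

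These 10 keratin genes (KRT5, KRT6A, KRT7, KRT8, KRT14, KRT15, KRT16, KRT17, KRT18 and KRT19) were followed here as 10 of the 23786 genes in the expression table, picked by gene identity and not by their values. The cells were MCF10A, an established line of non-tumorigenic human breast epithelium, and the treatment was TGFβ1, a cytokine that drives EMT in this line, at 10 ng/mL. The 9 treated samples were taken at 4 h and at 1, 2, 3, 4, 5, 6, 8 and 12 days, and the reference was 1 untreated sample. By the study's methods all cells, untreated ones included, were kept without serum before harvest, treatments were started at staggered times, and plates were harvested together. Each time had 1 array and so no replicate, and the sources used here do not say whether cultures were pooled for an array. Results come from 1 cell line, and in a bulk sample fewer cells of a type and less RNA per cell cannot be told apart.

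Values are log2 expression levels per gene as deposited, so a difference of 1 is a doubling. Neighbouring times stood in for replicates in 3 windows, late (days 5, 6, 8 and 12), middle (days 2, 3 and 4) and early (untreated, 4 h and day 1). A call between windows required a mean difference of 1 log2 or more together with a limma p that, after Benjamini-Hochberg adjustment across the whole table, did not exceed 0.05. Probes of different genes respond differently, so levels were compared between arrays and not between keratins, and the median gene of an array (2.92 to 2.98 log2) is quoted only as a guide to which genes read low.

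The arrays had closely similar distributions, but the untreated array stood apart. Its genes lay a median of 0.24 log2 from their own median over all arrays, against 0.10 to 0.16 log2 on the treated arrays. Of the markers of basal mammary epithelium, 7 of 8 lay above the median gene on every array, the exception being KRT17, as did 4 of 5 general epithelial markers. Of the luminal markers 5 of 11 did so, among them KRT7, KRT8 and KRT18, while ESR1, PGR, ELF5 and KIT lay below the median gene on every array. Fibroblast markers had a summed level of 24.0 to 24.6 log2 units on late arrays and 20.2 to 22.4 on early arrays, with COL1A1, DCN and THY1 above the median gene throughout and COL1A2, COL3A1, PDGFRA, PDGFRB and LUM below it throughout. The higher sum came largely from DCN, decorin, which averaged 6.64 log2 on late arrays and 3.72 on early arrays and was the only 1 of the 8 called as higher. The part of these markers in the keratin values was not tested.

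The promoter of KRT5 is shown because KRT5 was above untreated cells on every treated array and its start site could be read from RefSeq (GRCh38.p14). The sequence covers the 250 bases before the start, chr12:52520395-52520644 on the minus strand, written 5′ to 3′, and capitals mark its only match to CAGGTG, an E-box form to which the EMT repressors of the SNAI and ZEB families, among other factors, are known to bind.
KRT5: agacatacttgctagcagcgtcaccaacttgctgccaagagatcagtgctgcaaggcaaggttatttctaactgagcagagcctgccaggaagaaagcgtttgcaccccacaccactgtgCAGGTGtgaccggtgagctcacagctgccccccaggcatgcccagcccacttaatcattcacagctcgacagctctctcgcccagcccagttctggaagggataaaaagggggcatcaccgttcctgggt
The match begins 130 bases upstream of the start, and 17.5% of 35116 RefSeq promoters of the same length hold CAGGTG on either strand. The letters CAGAC (38.0% of promoters), TGANTCA (6.57%), TATAAA (10.7%) and GGGCGG (42.6%), searched on both strands, had no match in this window. Of the 10 keratins, 2 had an entry in the promoter table, KRT5 and KRT8. The entry for KRT8 starts at a site that is not the outermost start of that gene, and arrays do not show which start the cells used, so it is not printed.

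Among the basal keratins, KRT14 rose by day 1 and held its new level to day 12. KRT5 was above untreated cells on every treated array but did not pass the test between windows, and KRT15 was highest on 1 array, day 2, and lowest at day 12. KRT14, the type I keratin that co-polymerizes with KRT5, had 4.64 log2 in untreated cells, 4.90 at 4 h, 7.54 at day 1, 8.14 at day 2, 7.67 at day 3, 7.82 at day 4, 7.92 at day 5, 7.70 at day 6, 7.97 at day 8 and 7.89 at day 12. It was low on the first pair of arrays and high on every later one. The step between day 1 and 4 h was 2.63 log2, and 13 genes in the whole table (0.0547%) had a step of 2 log2 or more upwards between these arrays. This interval held the largest step of KRT14, and steps of that size at other intervals were not counted over all genes.

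**Figure D1:**
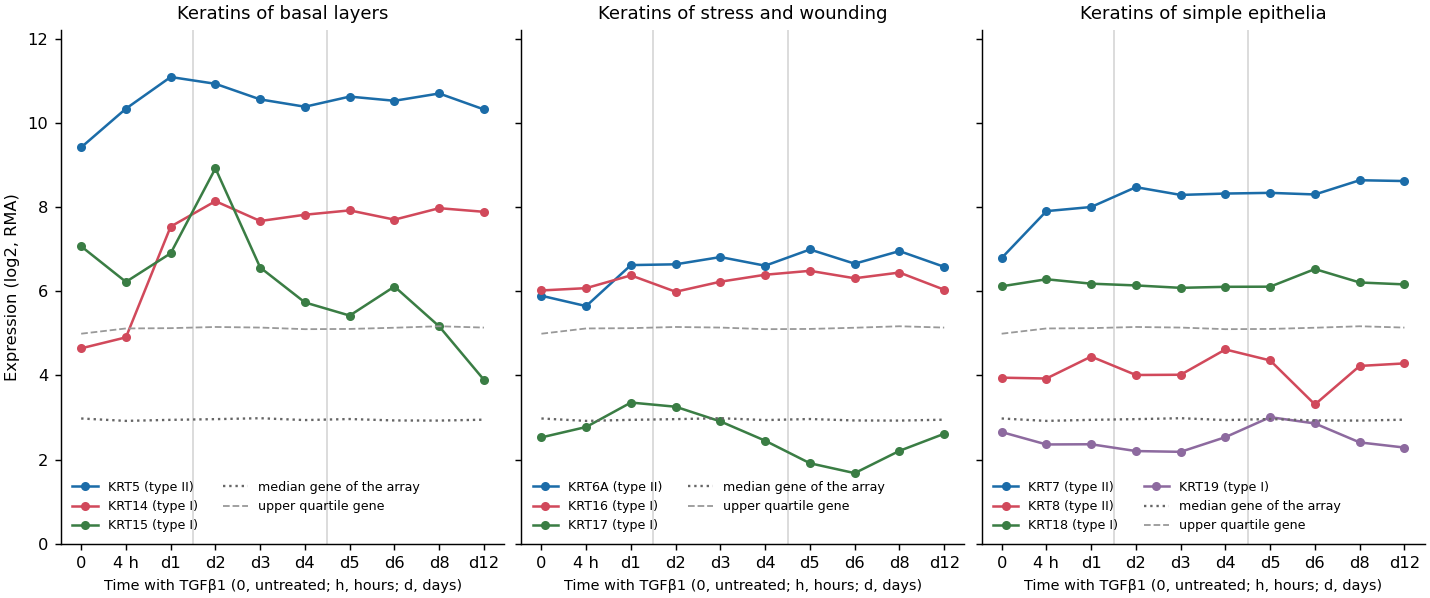
Expression (log2, y axis) of the 10 keratins on the 10 arrays in order of time (x axis, not to scale), grouped by the kind of epithelium they are known from. Each point is 1 array, the vertical lines part the early, middle and late windows, and the dotted and dashed lines give the median and the upper quartile gene of each array. KRT14 steps up at day 1 and stays between 7.54 and 8.14, KRT15 peaks at 8.92 on day 2 and ends at 3.89, and KRT17 and KRT19 lie below the median gene on 8 and 9 of the 10 arrays.

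The late arrays averaged 7.87 ± 0.12 log2 (SD, n = 4) for KRT14 and the early arrays 5.69 ± 1.60 (SD, n = 3), with no overlap. The difference of 2.18 log2 (SE 0.52, adjusted p = 0.0156 in limma), or 4.52-fold, was the only one among the 10 keratins that was called, where 4.56% of all genes were called in either direction and 2.92% as higher. It rested on the low early arrays, since without the untreated array it was 1.65 log2 (adjusted p = 0.0627 in limma) and without the 4 h array 1.78 log2 (adjusted p = 0.0678), neither of them called, while without the day 1 array it was 3.10 log2. Late arrays all lay above early ones for KRT14 and KRT7, a pattern that 10.8% of all genes showed.

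KRT14 was already at its late level in the middle window. The middle arrays averaged 7.87 ± 0.24 log2 (SD, n = 3), 2.18 log2 above the early arrays (SE 0.56, adjusted p = 0.0357 in limma), where 1.78% of all genes were called as higher. That call was lost when any 1 array other than day 1 or day 12 was left out, with adjusted p values between 0.0529 and 0.117. Late minus middle arrays gave -0.0048 log2 for KRT14, and 0 of the 10 keratins were called between these windows, beside 0.374% of all genes. At an unadjusted limma p under 0.05, 2 of the 10 differed between late and middle arrays, KRT15 and KRT17, as did 9.78% of all genes. The same limit took in 5 of the 10 between late and early arrays (KRT14, KRT15, KRT6A, KRT17 and KRT7), beside 28.3% of all genes.

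KRT5, the type II partner of KRT14, had 9.42 log2 in untreated cells, 10.34 at 4 h, 11.09 at day 1, 10.93 at day 2, 10.56 at day 3, 10.38 at day 4, 10.62 at day 5, 10.52 at day 6, 10.70 at day 8 and 10.32 at day 12. All 9 treated arrays were above untreated cells, by 0.90 to 1.67 log2, and the highest was day 1. The share of all genes with every treated array above the untreated one was not counted, and the untreated array stood apart from the rest. Because the early window spans this step, the late mean of 10.54 ± 0.16 log2 (SD, n = 4) and the early mean of 10.28 ± 0.84 (SD, n = 3) overlapped. Their difference was 0.26 log2 (SE 0.30, adjusted p = 0.632 in limma) and turned to -0.17 log2 without the untreated array. Against untreated cells alone, late arrays were 1.12 log2 higher, or 2.18-fold, a value with no test because 1 array stands on that side.

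KRT15, a type I keratin of basal and stem-like cells, had 7.07 log2 in untreated cells, 6.22 at 4 h, 6.90 at day 1, 8.92 at day 2, 6.56 at day 3, 5.73 at day 4, 5.42 at day 5, 6.11 at day 6, 5.16 at day 8 and 3.89 at day 12. It covered 5.03 log2, the widest range of the 10, and day 2 was the only treated array above untreated cells. Day 2 lay 2.02 log2 above day 1, and day 3 lay 2.36 log2 below day 2. Of all genes, 21 (0.0883%) stood at least 1 log2 above both neighbouring arrays at day 2, and KRT15 was the only one of the 10 keratins to do so on any array.

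Late arrays averaged 5.15 ± 0.93 log2 (SD, n = 4) for KRT15 and early arrays 6.73 ± 0.45 (SD, n = 3). All 4 late arrays were below all 3 early ones, as for 13.1% of all genes, yet the difference of -1.58 log2 (SE 0.66) was not called (adjusted p = 0.137 in limma). The day 2 array widened the error, because it belongs to the middle window whose spread the fit shares, and without it the same difference had an adjusted p of 0.0379 in limma. Late against middle arrays gave -1.92 log2 (SE 0.66, adjusted p = 0.329), and -1.0 log2 when day 2 was left out.

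**Figure D2:**
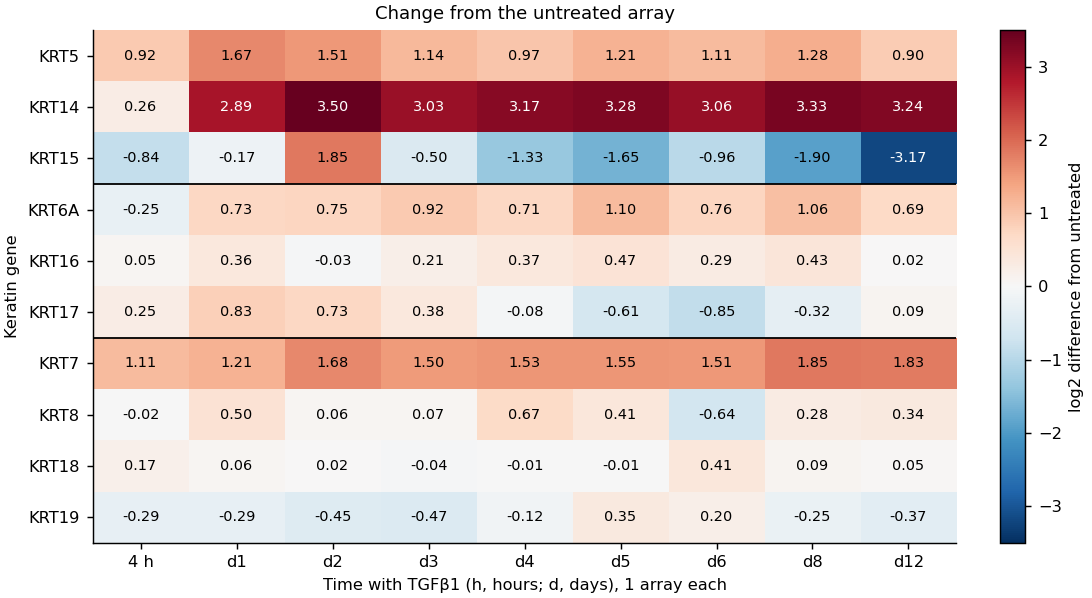
Change from the untreated array (log2, colour and printed value) for each keratin (rows) on each treated array (columns), 1 array each, with lines between the basal, stress and simple keratins. Red marks higher and blue lower than untreated, so that KRT5, KRT14 and KRT7 are red throughout and KRT15 is blue on every array except day 2, where it is 1.85.

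The keratins of stress and wounding differed by less between windows, and none of these 3 was called. KRT6A, the type II keratin of wound-edge epithelium, had 5.89 log2 in untreated cells, 5.65 at 4 h, 6.62 at day 1, 6.64 at day 2, 6.81 at day 3, 6.61 at day 4, 6.99 at day 5, 6.65 at day 6, 6.95 at day 8 and 6.58 at day 12. Like KRT14 it was low until 4 h and higher from day 1 on. Late arrays averaged 6.79 ± 0.21 log2 (SD, n = 4) and early arrays 6.05 ± 0.51 (SD, n = 3), a difference of 0.74 log2 (SE 0.21) that passed the p limit (adjusted p = 0.0305 in limma) but not the 1 log2 limit. Without the day 1 array it was 1.03 log2 (adjusted p = 0.00133 in limma) and was called.

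KRT16, the type I partner of KRT6A, stayed between 5.99 and 6.48 log2 on all 10 arrays. Its late mean was 6.32 ± 0.20 log2 (SD, n = 4) and its early mean 6.16 ± 0.19 (SD, n = 3), a difference of 0.16 log2 (SE 0.15, adjusted p = 0.536 in limma). KRT17, a type I keratin of wounded skin and of basal and myoepithelial cells, had 2.53 log2 in untreated cells, 2.77 at 4 h, 3.35 at day 1, 3.25 at day 2, 2.91 at day 3, 2.45 at day 4, 1.91 at day 5, 1.68 at day 6, 2.21 at day 8 and 2.61 at day 12. These levels were below the median gene on 8 of 10 arrays, were highest at days 1 and 2 and lowest at day 6, and came back above untreated cells at day 12. The late mean of 2.10 ± 0.40 log2 (SD, n = 4) was 0.78 below the early mean of 2.88 ± 0.43 (SD, n = 3), with an adjusted p of 0.0653 in limma.

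Close copies could share probes with these genes, and how the mapping treated shared probes is not given in the sources used here. KRT6B lay between 2.12 and 3.58 log2 and KRT6C between 1.01 and 2.07, while KRT16P2, a pseudogene copy of KRT16, lay between 5.62 and 6.22. At day 2 KRT16 was at its lowest level and KRT16P2 close to its highest, 6.21. How far any of these values rest on shared probes was not tested. The copy KRT17P5 read 1.19 to 2.16 log2.

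Of the simple epithelial keratins, KRT7 was higher on every treated array than in untreated cells, and the other 3 had late minus early differences of -0.06 to 0.18 log2. KRT7, a type II keratin of ducts and glands, had 6.79 log2 in untreated cells, 7.90 at 4 h, 8.00 at day 1, 8.47 at day 2, 8.29 at day 3, 8.32 at day 4, 8.34 at day 5, 8.30 at day 6, 8.64 at day 8 and 8.62 at day 12. The untreated array was the lowest, and all 9 treated arrays were higher, by 1.11 to 1.85 log2, a pattern whose share over all genes was not counted. At 4 h KRT7 was the only one of the 10 keratins at least 1 log2 above untreated cells, as were 2.21% of all genes.

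Late arrays averaged 8.47 ± 0.18 log2 (SD, n = 4) for KRT7 and early arrays 7.56 ± 0.67 (SD, n = 3). The windows did not overlap, and the difference of 0.91 log2 (SE 0.24) passed the p limit (adjusted p = 0.0269 in limma) but fell short of 1 log2. It was 1.13 log2 and called without the day 1 array (adjusted p = 0.0106 in limma), likewise 1.08 log2 and called without the 4 h array (adjusted p = 0.0262), and 0.52 log2 without the untreated array. Set against untreated cells alone, late arrays were 1.68 log2 higher, or 3.21-fold, with no test.

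KRT8 and KRT18, the first pair of keratins to appear in the embryo and the main pair of simple epithelium, had late levels close to their early ones. KRT8 (type II) had 3.95 log2 in untreated cells, 3.93 at 4 h, 4.45 at day 1, 4.01 at day 2, 4.01 at day 3, 4.62 at day 4, 4.35 at day 5, 3.31 at day 6, 4.22 at day 8 and 4.28 at day 12. The day 6 array stood below all others, 1.05 log2 under day 5. KRT18 (type I) stayed between 6.08 and 6.28 log2 on 9 arrays and read 6.53 on day 6, the array on which KRT8 was lowest. The late minus early difference was -0.06 log2 for KRT8 (SE 0.26, adjusted p = 0.909 in limma) and 0.06 for KRT18 (SE 0.12, adjusted p = 0.809).

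KRT19, the smallest type I keratin and a luminal marker, lay between 2.18 and 3.01 log2 and below the median gene on 9 of 10 arrays. Its late mean was 2.64 ± 0.35 log2 (SD, n = 4) and its early mean 2.46 ± 0.17 (SD, n = 3), a difference of 0.18 (SE 0.18, adjusted p = 0.574 in limma). At such levels a loss of transcript may not be visible on these arrays.

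**Figure D3:**
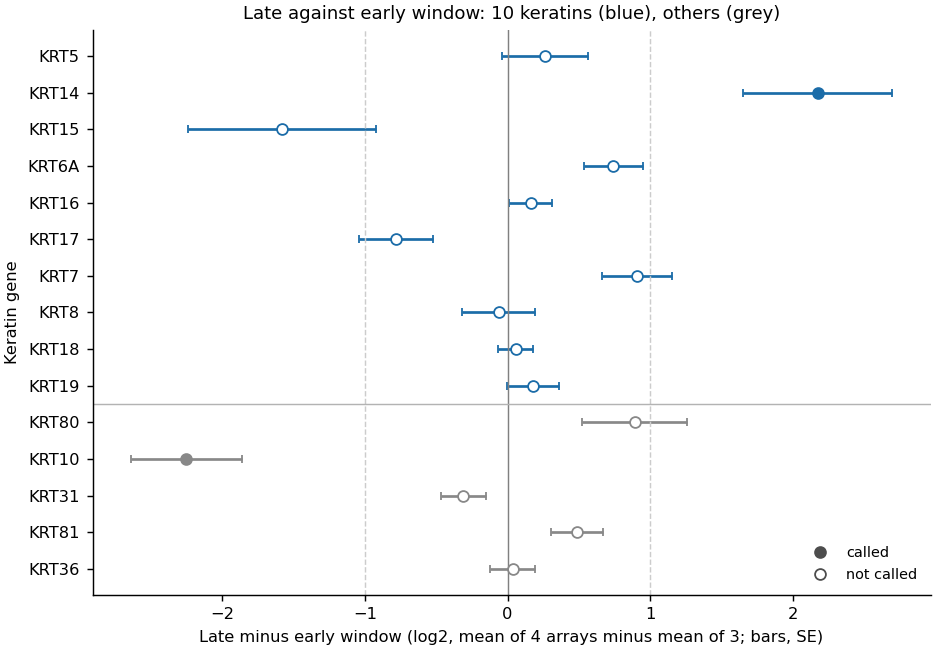
Late minus early difference (log2, x axis, mean of 4 late arrays minus mean of 3 early arrays, bars SE from limma) for the 10 keratins (blue) and the 5 other keratins whose mean lay above that of the median gene (grey). Filled points were called, which holds for KRT14 (2.18) and for KRT10 (-2.25), and dashed lines mark 1 log2 in either direction.

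Of the 10 genes, 1 was called as higher, 0 as lower and 9 were not called between late and early arrays, with a median difference of 0.17 log2 beside -0.06 over all genes. Between middle and early arrays the median was 0.22 log2 beside -0.03 over all genes, and between late and middle arrays 0.05 beside -0.02. A regression on days and their square called KRT14 as higher (adjusted p = 0.0311 in limma, R2 0.64) and KRT6A as higher (adjusted p = 0.0264, R2 0.71), where 5.21% of all genes were called as higher. It called KRT15 as lower (adjusted p = 0.0429 in limma, R2 0.61), where 3.44% were. KRT7 missed both limits (adjusted p = 0.0617 in limma, R2 0.598). These calls were fragile, and none was kept when the untreated, the day 5 or the day 8 array was left out. Without the untreated array the adjusted p values in limma were 0.157 for KRT14, 0.0982 for KRT6A and 0.0762 for KRT15. The call of KRT14 was also lost without 4 h or day 4 and that of KRT6A without 4 h. KRT15 kept its call only without 4 h or day 2, and without day 12 its adjusted p was 0.254.

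The change from untreated cells set in at different times. For the 4 genes whose late mean was at least 1 log2 from untreated cells, the change first passed its midpoint at 4 h for KRT5 (0.92 log2) and KRT7 (1.11), at day 1 for KRT14 (2.89) and at day 4 for KRT15 (-1.33). Per array, the number of keratins at least 1 log2 above untreated cells was 1 at 4 h, 3 at day 1, 4 at day 2, 3 at day 3, 2 at day 4, 4 at day 5, 3 at day 6, 4 at day 8 and 2 at day 12. The number at least 1 log2 below was 1 on days 4, 5, 8 and 12, KRT15 each time, and 0 on the other arrays. Over all genes, the share per treated array was 2.21% to 6.59% above and 1.39% to 4.65% below.

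Partners of opposite type were also set against each other. The change of the type II keratin from untreated cells minus that of its type I partner was taken on each array for 6 pairs, which share the untreated array and in part their members. For KRT5 with KRT14 this difference was -2.10 ± 0.17 log2 on late arrays (SD, n = 4) and -0.19 ± 0.95 on early arrays (SD, n = 3), the negative values meaning a larger gain in KRT14 than in KRT5. With KRT15 as the partner the sign turned, with 3.04 ± 0.83 log2 on late arrays and 1.20 ± 1.04 on early arrays. For KRT6A the late and early values were 0.60 ± 0.09 and 0.02 ± 0.34 log2 with KRT16, and 1.33 ± 0.50 and -0.20 ± 0.26 log2 with KRT17.

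In each of these 4 pairs no late array overlapped an early one, which gave the smallest p that the exact two-sided permutation test of 4 against 3 arrays allows, 0.0571 (0.0857 adjusted over 6 pairs). The design cannot reach 0.05. Late and early arrays did not overlap for KRT14 (above) and KRT15 (below) taken alone, as for 10.8% and 13.1% of all genes in those directions. How often other pairs of genes part in this way was not counted. For KRT7 with KRT19 the late value was 1.70 ± 0.52 log2 and the early value 0.97 ± 0.84 (exact permutation p = 0.343, adjusted 0.411). KRT8 and KRT18 differed by -0.04 ± 0.68 log2 on late arrays and 0.08 ± 0.32 on early arrays (exact permutation p = 0.971).

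**Figure D4:**
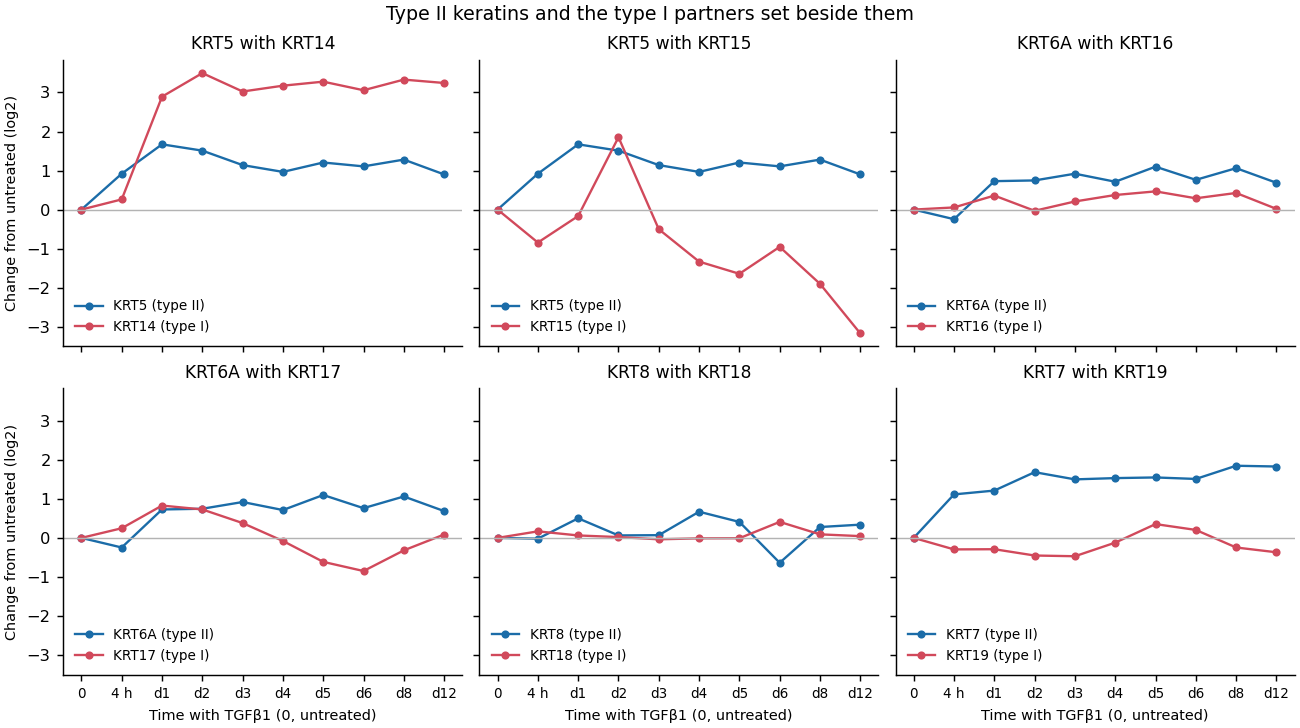
Change from the untreated array (log2, y axis) for 6 pairs of a type II keratin (blue) and a type I keratin known to partner it (red), by time with TGFβ1 (x axis, not to scale), 1 array per point. KRT5 minus KRT15 is 1.76 at 4 h, 1.84 at day 1, -0.34 at day 2 and 1.64 at day 3, and reaches 4.07 at day 12. KRT14 stays above KRT5 from day 1 on.

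Across the 10 arrays, which share the untreated one, KRT14 ran closest to KRT6A (Pearson r = 0.93, and 0.92 without the untreated array) and to KRT7 (0.85, and 0.73 without it). Untreated and 4 h arrays were low for both KRT14 (4.64 and 4.90 log2) and KRT6A (5.89 and 5.65). From day 1 on KRT14 stayed within 7.54 to 8.14 log2 and KRT6A within 6.58 to 6.99. Their correlation over those later arrays was not computed. KRT5 and KRT14 had r = 0.72, which was 0.37 without the untreated array, and KRT5 and KRT7 had 0.73, which was -0.09 without it. KRT8 ran opposite to KRT18 (r = -0.76, and -0.82 without the untreated array), and KRT17 to KRT19 (r = -0.81, and -0.82 without it). Day 6 held both the lowest KRT8 (3.31 log2) and the highest KRT18 (6.53). On the other arrays KRT18 stayed between 6.08 and 6.28 log2. The correlation of KRT8 and KRT18 without day 6 was not computed, so it may rest on that array. These are descriptions over 10 points of 1 time course.

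Among about 4145 named genes with a range of at least 1 log2 and a mean above that of the median gene, the courses most like each keratin were found by Pearson correlation over the 10 arrays. They were TRIM29 (0.94) and STN1 (0.94) for KRT5, CGB8 (0.98) and CASC15 (0.98) for KRT14, and ABCC2 (0.93) and SERPINF1 (0.93) for KRT15. For KRT6A they were ASAP3 (0.97) and STPG1 (0.96), for KRT17 TAS2R4 (0.95) and BTG2 (0.92), and for KRT7 PLEKHA2 (0.99) and CDIPT (0.99). CGB8 is 1 of a set of near-identical chorionic gonadotropin genes, so its assignment is uncertain. KRT8 had no gene as close over the 10 arrays, its best being NBR2 (0.76) and ANAPC1P2 (0.70). Without the untreated array these had 0.85 and 0.71, and the genes named for the other keratins 0.87 to 0.97. All were picked as the highest among these candidates, and no baseline for such a pick was set.

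Keratin genes lie in gene clusters, type II on chromosome 12 and type I on chromosome 17, with KRT18 as the type I gene that sits beside KRT8. Of 27 measured keratins of the chromosome 12 cluster 7 had a mean above that of the median gene and 0 were called between late and early arrays. Of 28 on chromosome 17, 6 lay above it, 1 was called as higher (KRT14) and 1 as lower (KRT10). KRT14, KRT16 and KRT17 follow each other in that cluster, yet their late minus early differences were 2.18, 0.16 and -0.78 log2.

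Outside the 10 genes, 44 other keratins were measured, of which 5 had a mean above that of the median gene. KRT10, a type I keratin of differentiating layers above the basal one, had 7.43 log2 in untreated cells, 6.55 at 4 h, 8.18 at day 1, 7.13 at day 2, 6.21 at day 3, 6.12 at day 4, 5.59 at day 5, 5.47 at day 6, 5.09 at day 8 and 4.38 at day 12. Its late arrays were all below its early ones, and the difference of -2.25 log2 (SE 0.39, adjusted p = 0.00266 in limma) was the only call among the 44, a share no larger than the 4.56% of all genes called in either direction. Their median difference was -0.03 log2.

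Keratins attach to desmosomes and hemidesmosomes. Of 21 genes of these junctions 2 were higher between late and early arrays, 0 lower and 19 not called, beside 2.92% of all genes higher, with a median of 0.20 log2. The regression on time called 6 of the 21 as higher and 0 as lower, beside 5.21% of all genes higher. Besides the pair called between windows these were the desmosomal cadherins DSG2, DSG3 and DSC2 and JUP, plakoglobin, named here after their values were seen. The pair called between windows was ITGB4, the hemidesmosome integrin chain, at 9.76 ± 0.18 log2 on late arrays (SD, n = 4) and 7.75 ± 1.20 on early arrays (SD, n = 3), and PLEC, plectin, which ties keratin filaments to that integrin, at 6.45 ± 0.17 and 5.26 ± 0.52 log2. Their adjusted p values in limma were 0.00543 and 0.00244. DSP, desmoplakin, the keratin anchor of desmosomes, differed by 0.07 log2 (adjusted p = 0.777 in limma). CDH1, the cell adhesion molecule E-cadherin, was 9.94 ± 0.11 log2 on late arrays and 9.29 ± 0.24 on early arrays (adjusted p = 0.00543 in limma, below the 1 log2 limit). Its late arrays all lay above its early ones. The regression called CDH1 as higher (adjusted p = 0.0133 in limma, R2 0.82, largest change 1.01 log2).

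Among 15 other intermediate filament genes, LMNB1, a lamin of the nuclear envelope, was called as higher (1.20 log2, adjusted p = 0.00303 in limma). The other 14 were not called, and the median of the 15 was -0.13 log2. Of all genes, 2.92% were called as higher. VIM, vimentin, the mesenchymal filament, averaged 8.32 ± 0.15 log2 on late arrays and 7.94 ± 0.52 on early arrays (adjusted p = 0.242 in limma). The early window spans a step in VIM, which read 7.70 log2 in untreated cells, 7.59 at 4 h and 8.53 at day 1. On later arrays VIM stayed between 8.10 and 8.43 log2. Of 32 factors known to act on keratin genes 0 were higher, 1 lower and 31 not called, with a median of -0.10 log2. That share is near or below the 4.56% of all genes called in either direction. The 1 lower between windows was EHF, an epithelial ETS factor, at -1.17 log2 (adjusted p = 0.0251 in limma). The regression called 1 of the 32 as higher and 4 as lower, EHF among the latter. Of all genes, 5.21% were called as higher and 3.44% as lower by the regression. TP63, the basal factor that drives KRT5 and KRT14, averaged 7.43 ± 0.48 log2 on late arrays and 7.98 ± 0.10 on early arrays, with no overlap (adjusted p = 0.113 in limma), and was called as lower by the regression (adjusted p = 0.0318, R2 0.71, largest change -1.34 log2). Late minus early was -0.54 log2 for SNAI1, 0.85 for SNAI2, 0.92 for ZEB1 and 0.55 for ZEB2, all under the 1 log2 limit. Their adjusted p values in limma were 0.0195, 0.00217, 0.00300 and 0.137. SNAI1 read 1.41 to 2.24 log2, below the median gene of every array (2.92 to 2.98 log2), so the size of its difference is uncertain. Between middle and early arrays ZEB2 was called as higher (1.17 log2, adjusted p = 0.0151 in limma), as were 1.78% of all genes. Any link of these factors to KRT5 was not tested.

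Of 25 measured chaperones, modifiers and binding proteins of keratins, 3 were higher and 1 lower, beside 2.92% and 1.64% of all genes, with a median of 0.20 log2. These were TGM2, a transglutaminase (2.92 log2), CDK1, a cell cycle kinase that phosphorylates keratins (2.67), EPPK1, the keratin-binding protein epiplakin (1.22), and PRKCE, a protein kinase C (-1.01), with adjusted p values in limma of 0.00105, 0.000106, 0.00359 and 0.00794. Of 23 measured cornified envelope and stress genes of keratinocytes, 6 were lower and 0 higher, beside 1.64% of all genes lower, with a median of -0.22 log2. The 4 with the largest differences were PI3 (-3.21 log2), S100A7 (-3.09), CSTA (-2.84) and S100A8 (-2.69), with adjusted p values in limma of 1.21e-05, 0.000503, 2.09e-05 and 0.000101. The late mean of S100A7, 1.27 log2, lay below the lower quartile gene of every array (1.64 to 1.80 log2), so its difference was read against the low end of the scale and its size is uncertain.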

How the data were processed

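Total RNA of MCF10A cells was measured on 10 whole-transcript Affymetrix arrays, 1 for untreated cells and 1 for each of 9 times with TGFβ1. Log2 values were deposited by the authors after RMA (background correction, quantile normalization between arrays, median polish) with a custom mapping of probes to Entrez genes. RMA equalizes the arrays, so a shift shared by most genes would be removed. All 23786 deposited genes were kept and no filter on low values was set, since detection calls were not used here. The 10 keratins were matched by Entrez identifier through an NCBI gene table (GRCh38.p14), which named 23093 genes and left 693 without a symbol. The number of arrays limits the precision.

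Analysis was run in R 4.3.3 with limma 3.58.1. Plots were made with matplotlib 3.10.9 under Python 3.11.15. The windows were set to match the cell states that the study described. A mean per window was fitted with empirical Bayes moderation, so the spread is that of arrays at different times (median residual SD 0.20 log2), it holds array noise as well as change within a window, and p-values measure that spread only. For the course, time in days and its square were fitted (untreated as 0), and a call required an adjusted p up to 0.05, an R2 from 0.6 upwards and, on some array, a shift of 1 log2 or more against untreated cells. The limits are those the study gives for its time regression, whose software was not used here. Partner differences were tested by exact permutation over arrays. Tests were tried on simulated data.

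Named genes are all 10 keratins, the called members of each list (up to 4 per direction), VIM, CDH1, TP63 and DSP, and the 2 genes closest in course to each keratin with a range of at least 1 log2. KRT6B, KRT6C, KRT16P2, KRT17P5 and KRT10's course were added as close copies or after values were seen. SNAI1, SNAI2, ZEB1 and ZEB2 were also added after values were seen. The members, gene lists and limits were chosen with earlier results of these data known. Alternatives tried were leaving out each array, centring arrays on their median, quantile normalization, limits of 0.5 and 1.5 log2, a trended and robust prior, genes above the median gene only, day 5 in the middle window, other forms of time, no limit on R2, another baseline and, added after the data were seen, day 1 in the middle window.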

Additional observations from a re-analysis of the deposited data

Results flagged for a closer look

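Within the 4 late arrays, KRT8 read 3.31 log2 on day 6, and the other late arrays read 4.22 to 4.35. The gap to the nearest array was 0.875 of the whole range, above Dixon's critical value for 4 arrays. It was 1 of 10 keratins screened, and chance flags about 1 in 20 such groups. KRT18 on the same array was the highest of its course, at 6.53 log2. The cause was not tested.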

How the results depend on the processing

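No paired analysis was possible because each time had 1 array. No difference that was called changed sign under any alternative. Leaving out 1 array at a time, the number of the 10 keratins called ran between 0 (without the untreated array) and 3 (without day 1) for late against early, between 0 and 2 for middle against early, stayed at 0 for late against middle, and ran between 0 and 4 for the course over time. For late against early it was 3 with a limit of 0.5 log2, and 3 with day 1 in the middle window. The course called 0 keratins with days alone. With the mean of untreated and 4 h as the baseline, KRT7 passed its midpoint at day 1, against 0.167 days, and KRT5 gave no value, since its late change then lay under 1 log2.

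For late against early, leaving out arrays gave 2 to 3 called junction genes, 1 to 2 factors, 3 to 6 binding proteins, 6 to 7 cornified envelope genes and 1 to 3 other keratins. The limit of 0.5 log2 gave 6 junction genes, 8 factors and 2 other keratins, and the limit of 1.5 log2 gave 1 junction gene, 0 factors, 0 other filament genes and 2 binding proteins. Factors were 2 with quantile normalization, with a trended and robust prior, among genes above the median gene and with day 5 or day 1 in the middle window, where other keratins were also 2 with day 1. Over all genes, 1084 were called for late against early, 3140 with the limit of 0.5 log2 and 395 with 1.5 log2. For middle against early 667 were called, 1792 and 214 with these limits, 1092 without day 1 and 439 without day 4. For late against middle 89 were called, between 2 and 110 with 1 array left out, 31 with 1.5 log2 and 1 with day 5 in the middle window. For the course 2058 were called and 430 with days alone. The cause was not tested where the construction of the alternative does not give it.

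With 1 array left out, the partner differences ranged over -2.43 to -1.49 log2 for KRT5 and KRT14, 1.24 to 2.17 for KRT5 and KRT15, 0.42 to 0.75 for KRT6A and KRT16, 1.38 to 1.77 for KRT6A and KRT17, 0.24 to 0.99 for KRT7 and KRT19 and -0.27 to 0.22 for KRT8 and KRT18, which changed sign without day 6. Single arrays per time, and keratins near the median gene (KRT17, KRT19), limit what could be seen.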
